A study of Sus scrofa with 6 samples.

Results

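ITGAV and ITGB3 encode the alpha-v and beta-3 subunits of an integrin, and SPP1 encodes osteopontin, a secreted protein that this integrin binds. The 3 genes were chosen because their signals differed between IPEC-1 and IPEC-J2, which are epithelial lines of the pig intestine. They are 3 of the 6765 genes that the platform annotation names on the array. Each is covered by 1 probe set with that symbol alone (gene ID 397285 for ITGAV, 397063 for ITGB3 and 397087 for SPP1), out of 10069 probe sets with a single symbol. Of 23999 probe sets, 13732 were unnamed here, so that further probes for these genes may exist among them.

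Both cell lines grew out spontaneously from the small intestine of newborn piglets and were compared untreated, without transgene or deletion. Cells of both lines were grown on membrane inserts in medium with foetal calf serum, insulin-transferrin-selenium and epidermal growth factor, for 7 days by the sample labels and for longer by the methods. RNA of 3 cultures of IPEC-1 and 3 of IPEC-J2 was measured on 6 Affymetrix Porcine Genome Arrays, each with 500 ng from 1 culture. The lines share 1 cell bank number in the labels but not in the methods, and each line is 1 permanent stock, so that the p-values below measure the spread between cultures of these stocks only.

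Integrins are receptors of an alpha and a beta chain that hold cells to the matrix and signal through adaptor proteins and kinases at their short tails. The alpha-v chain pairs with several beta chains, and beta-3 pairs with alpha-v and with the platelet chain alpha-IIb. Alpha-v beta-3 recognises the motif arginine-glycine-aspartate in osteopontin, vitronectin, fibronectin and other matrix proteins, and osteopontin is known from bone, from macrophages and from the surface of secretory epithelia. In the text below, a signal is the deposited value on the log2 scale, a difference is the mean of IPEC-J2 minus the mean of IPEC-1 on that scale, and a fold is its antilog.

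On all arrays the lowest signal was exactly 4.00, which held between 40.5 and 48.3% of the probe sets and is called the floor. The lowest 75th percentile of an array was 8.31, on IPEC-J2 replicate 1, and the other 5 arrays lay between 8.51 and 8.56. No pair of arrays was identical, and arrays of 1 line correlated at 0.920 to 0.937 across the 16322 probe sets that exceeded the floor on at least 1 array. To judge low signals, a level was set for each line at the 95th percentile of signals seen on a single array where the other arrays of that line were at the floor. It came to 7.85 for IPEC-1 and to 7.78 for IPEC-J2. One note on the culture (A) is common to the labels of IPEC-1 replicate 1 and of replicate 3 of IPEC-J2. Another (B) links IPEC-1 replicate 2 with replicate 1 of IPEC-J2.

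The 2 receptor subunits were higher and the ligand was lower in IPEC-J2, with no overlap between the lines for any of the 3 genes. Signals that do not overlap were frequent on these arrays, with 41.3% of the 16322 probe sets, 17.4% above and 23.9% below in IPEC-J2. Since the genes were chosen on these values, their differences are given as a description and without a test. RNA was taken from whole cultures, so that fewer cells with the transcript and less transcript per cell cannot be told apart.

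ITGAV had signals of 8.69, 8.12 and 8.76 in replicates 1, 2 and 3 of IPEC-1, in that order here and below, and of 10.03, 10.24 and 10.16 in replicates 1, 2 and 3 of IPEC-J2. The lowest IPEC-J2 array lay 1.27 above the highest IPEC-1 array, a gap larger than the range within IPEC-1 (0.64) or within IPEC-J2 (0.21). The means were 8.52 ± 0.35 (SD, n = 3) in IPEC-1 and 10.14 ± 0.11 (SD, n = 3) in IPEC-J2, a difference of 1.62 (SE 0.21) or 3.07-fold. IPEC-1 replicate 2 was the lowest array and set most of the spread in that line. Without it the difference was 1.42.

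ITGB3, the chain that gives this receptor its name together with alpha-v, had signals of 8.64, 8.35 and 8.82 in IPEC-1 and of 10.96, 11.32 and 11.24 in IPEC-J2. The gap between the lines was 2.14, against ranges of 0.47 within IPEC-1 and 0.36 within IPEC-J2. The means of 8.60 ± 0.24 and 11.17 ± 0.19 (SD, n = 3 each) differed by 2.57 (SE 0.18) or 5.94-fold. All IPEC-1 signals of both chains were above the level of 7.85, so that these folds do not rest on the floor.

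SPP1 had signals of 12.10, 11.18 and 10.95 in IPEC-1 and of 5.20, 5.15 and 4.00 in IPEC-J2. All IPEC-1 arrays were thus bright, while IPEC-J2 replicate 3 was at the floor and the other IPEC-J2 arrays lay below the level of 7.78 that single arrays reach by themselves. The means were 11.41 ± 0.61 and 4.78 ± 0.68 (SD, n = 3 each), with a difference of -6.63 (SE 0.46). Taken at face value this is a 98.8-fold lower signal, and 12.4-fold when the IPEC-J2 mean is raised to the level of 7.78. The larger figure includes a value at the floor.

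**Figure D1:**
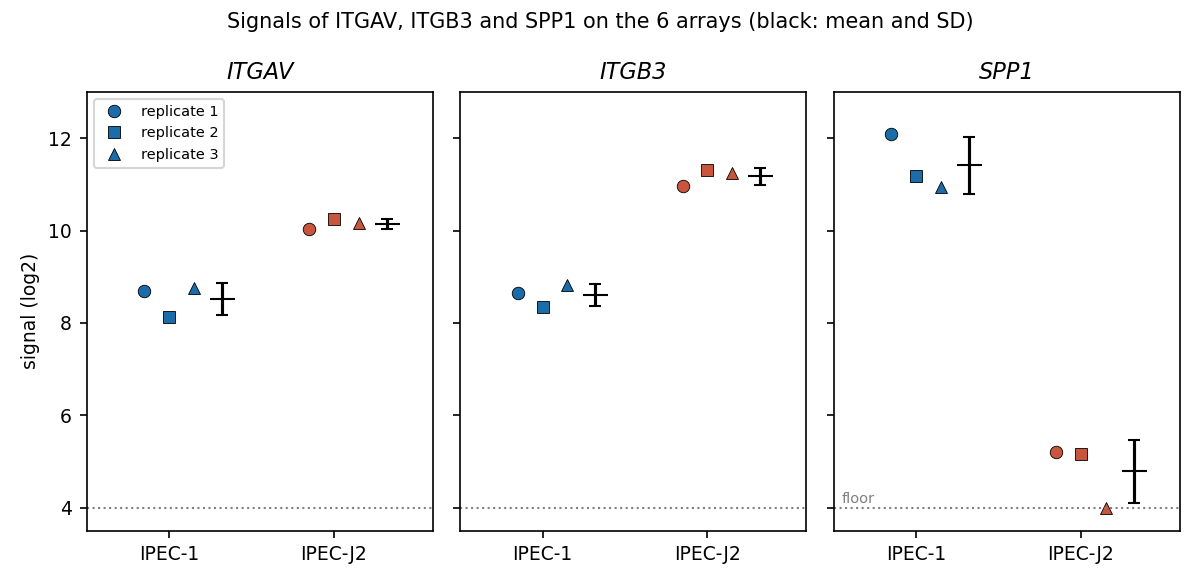
Signals (log2) of ITGAV, ITGB3 and SPP1 in IPEC-1 (blue) and IPEC-J2 (red), with 1 marker shape per replicate, the mean and SD in black and the floor of 4.00 as a dotted line. ITGAV and ITGB3 are higher on all 3 IPEC-J2 arrays, and SPP1 is near the floor on all 3 of them.

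The receptor chains had a similar order of arrays within the lines. IPEC-1 replicate 2 was the lowest and IPEC-1 replicate 3 the highest IPEC-1 array for both, and IPEC-J2 replicate 1 the lowest and IPEC-J2 replicate 2 the highest IPEC-J2 array. IPEC-J2 replicate 1 is also the dimmest array as a whole. With all arrays centred on their 75th percentile, its ITGAV signal was the highest of the IPEC-J2 arrays (10.21, against 10.17 and 10.14 on IPEC-J2 replicates 2 and 3), whereas its ITGB3 signal was still the lowest (11.14, against 11.25 and 11.22). In IPEC-1 the order of both genes stayed as it was. SPP1 went another way, with its highest signal on IPEC-1 replicate 1.

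Within culture note A the difference was 1.47 for ITGAV, 2.60 for ITGB3 and -8.10 for SPP1, and within note B it was 1.91, 2.61 and -5.98. ITGB3 thus differed by nearly the same amount in both notes, and the span of SPP1 comes from the IPEC-J2 array at the floor in note A and the brighter signal of its IPEC-1 partner. Of 20 other ways to process the data, 8 cannot change the difference of a gene with 1 probe set. Over the remaining 12, it ranged from 1.42 to 1.74 for ITGAV, from 2.44 to 2.68 for ITGB3 and from -7.04 to -5.95 for SPP1.

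Ranked by size, SPP1 had the 6th largest difference of the 8984 probe sets lower in IPEC-J2, while ITGB3 was 290th and ITGAV 735th of the 7338 that were higher. The median difference of all 16322 probe sets was -0.07. These ranks describe why the genes stand out and are not a test.

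**Figure D2:**
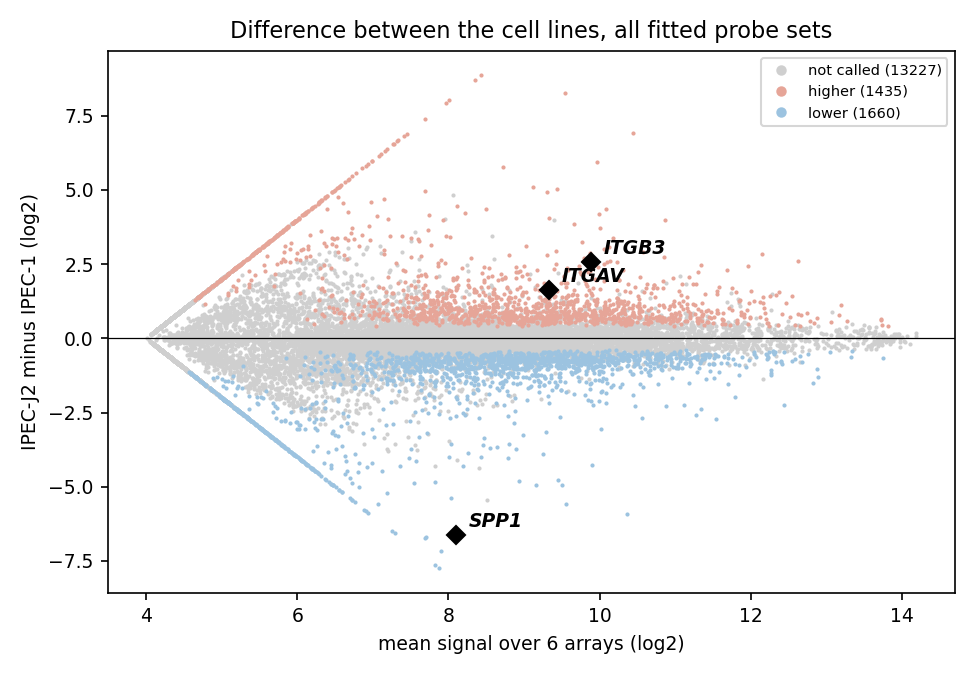
Difference between the cell lines (log2, vertical axis) against the mean signal over the 6 arrays (log2, horizontal axis) for 16322 probe sets, coloured where the adjusted p from limma was under 0.05, with ITGAV, ITGB3 and SPP1 as black diamonds. The slanted edges are probe sets at the floor in 1 line; SPP1 lies among the largest decreases at a difference of -6.63, and ITGB3 and ITGAV among the higher probe sets at 2.57 and 1.62.

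**Figure D3:**
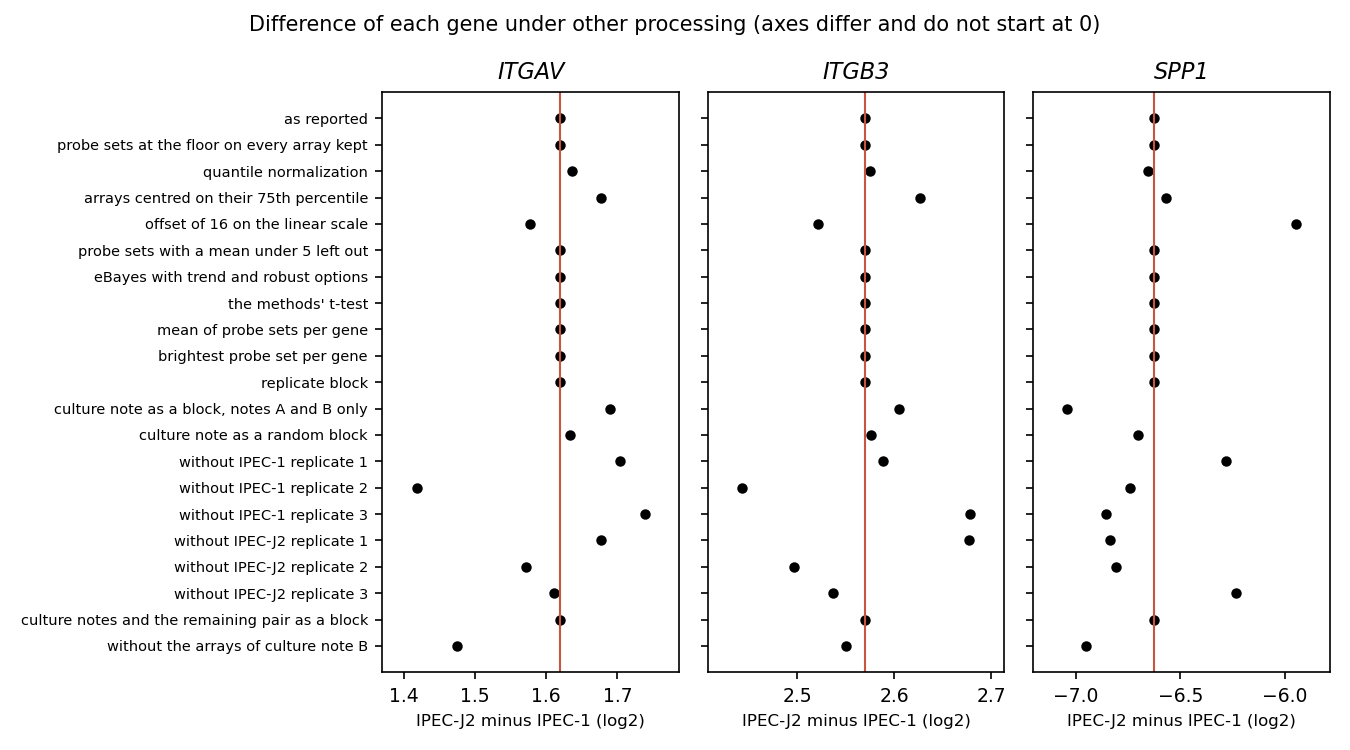
Difference between the cell lines (log2) for ITGAV, ITGB3 and SPP1 as reported (red line) and under 20 other ways of processing, with 1 point each, of which 8 give the reported value by construction. The horizontal axes differ between the genes; all points lie between 1.42 and 1.74 for ITGAV, 2.44 and 2.68 for ITGB3, and -7.04 and -5.95 for SPP1.

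The other genes around this receptor were taken from 8 lists, which together had 129 probe sets above the floor on at least 1 array, for 84 genes. Of these probe sets, 11 rose and 12 fell from IPEC-1 to IPEC-J2 at an adjusted p under 0.05 from limma, or 17.8%. Over all 16322 probe sets the share was 19.0% (8.79% higher and 10.2% lower), so that the lists as a whole were called about as often as the array. The median difference of the 129 probe sets was -0.03. The higher probe sets numbered 6 without IPEC-1 replicate 2, 7 without IPEC-J2 replicate 2, 5 without IPEC-J2 replicate 3 and 5 without both arrays of note B. The lower ones numbered 8 without IPEC-J2 replicate 3. The share called on the whole array fell too, from 19.0% to 13.1% without IPEC-1 replicate 2 and 12.8% without IPEC-J2 replicate 2. It was 9.87% without IPEC-J2 replicate 3 and 13.7% without both arrays of note B.

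Alpha-v and beta-3 can form receptors with other chains, and the array named 3 of 5 of these. None of the 3 passed the test with limma or with the methods' t-test after adjustment, and 2 had an unadjusted p under 0.05 with limma. On the whole array limma called 19.0%. ITGB1, the beta-1 chain found in most integrins of epithelia, had signals of 12.26, 12.02 and 11.99 in IPEC-1 and of 11.92, 12.09 and 12.03 in IPEC-J2. These overlap, with a difference of -0.08 (SE 0.13, adjusted p = 0.684 from limma). ITGB5, the chain of the vitronectin receptor alpha-v beta-5, had 9.03, 8.73 and 9.26 in IPEC-1 against 9.56, 9.56 and 9.43 in IPEC-J2. All IPEC-J2 arrays were higher, by 0.51 in the mean (SE 0.17), and the adjusted p was 0.0950 from limma. ITGA2B, the platelet partner of beta-3, had 7.46, 7.86 and 7.68 in IPEC-1 against 4.00, 6.97 and 4.00 in IPEC-J2. Its difference of -2.68 (SE 0.86) had an adjusted p of 0.0903 from limma, and -3.67 with an adjusted p of 0.000907 without IPEC-J2 replicate 2. Both means of ITGA2B lie below the levels of 7.85 and 7.78. ITGB6 and ITGB8 were not analysed here.

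Of the other integrin chains, 7 of 19 were named, with 13 probe sets of which 9 were at the floor on every array. These 9 included all probe sets of ITGA6, which pairs with beta-4 in hemidesmosomes, of ITGB7, and of the leukocyte chains ITGB2 and ITGAM. None of the remaining 4 probe sets, of ITGA2, ITGA5 and ITGA8, passed the test with limma, with the methods' t-test or at an unadjusted p under 0.05. The share called by limma on the array was 19.0%. ITGA2, a chain of the collagen receptor, had a difference of 1.02 (SE 0.74, adjusted p = 0.402 from limma) at signals below 7.85. ITGA5, the alpha chain of the fibronectin receptor, was above the floor only on IPEC-1 replicate 3 (7.50) and IPEC-J2 replicate 3 (7.24).

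Among other ligands of alpha-v beta-3, 12 probe sets for 7 genes were above the floor on some array, and 2 of them were lower and 0 higher in IPEC-J2 from limma (3 lower and 0 higher from the methods' t-test, 4 lower and 0 higher at an unadjusted p under 0.05 from limma). The share of 16.7% called compares with 19.0% on the array. Both lower probe sets belong to POSTN, which encodes periostin, a matrix protein that binds alpha-v integrins. The brighter one had signals of 9.13, 8.53 and 9.06 in IPEC-1 and of 4.00, 4.00 and 5.03 in IPEC-J2. Like SPP1, it was clear in IPEC-1 and at or near the floor in IPEC-J2, with a difference of -4.56 (SE 0.35, adjusted p = 0.000921 from limma), or 2.18-fold lower against the level of 7.78. The dimmer probe set was called too (3.99-fold, adjusted p = 0.00230 from limma) and lay below that level in both lines.

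FN1, which encodes fibronectin, was bright in both lines on 1 of its probe sets, with 13.33, 13.42 and 13.17 in IPEC-1 against 13.51, 13.65 and 13.59 in IPEC-J2. Its difference of 0.28 (SE 0.12) did not pass (adjusted p = 0.173 from limma), and that of the other probe set was 0.05 (SE 0.15). VTN, which encodes vitronectin, was at the floor on all arrays except IPEC-J2 replicate 3 (5.50). CYR61, a secreted regulator of adhesion, had 11.84, 11.22 and 11.22 in IPEC-1 against 10.59, 10.82 and 9.81 in IPEC-J2, a difference of -1.02 (SE 0.33, adjusted p = 0.0924 from limma) without overlap. The 3 probe sets of THBS1, which encodes thrombospondin-1, had differences of -1.34, -0.94 and -0.59 with adjusted p from limma between 0.187 and 0.384. TGFB1, whose propeptide binds alpha-v integrins, had -0.36 and 0.02 on its 2 probe sets, and neither passed. IBSP, DMP1 and DSPP, relatives of osteopontin in bone and teeth, and TNC, FBN1 and VWF were at the floor on every array.

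THY1, a surface glycoprotein that was on the list of fibroblast markers and is also known to bind alpha-v beta-3, was singled out after its values were seen. Its brightest probe set was at the floor in all 3 cultures of IPEC-1 and had signals of 11.87, 12.12 and 11.80 in IPEC-J2. The signal was 16.9-fold higher there with IPEC-1 set to the level of 7.85. The adjusted p of 1.7e-05 from limma belongs to the difference of 7.93 from the floor, where IPEC-1 has no spread. The other 2 probe sets of THY1 were also at the floor in IPEC-1 and had means of 9.05 and 7.68 in IPEC-J2.

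**Figure D4:**
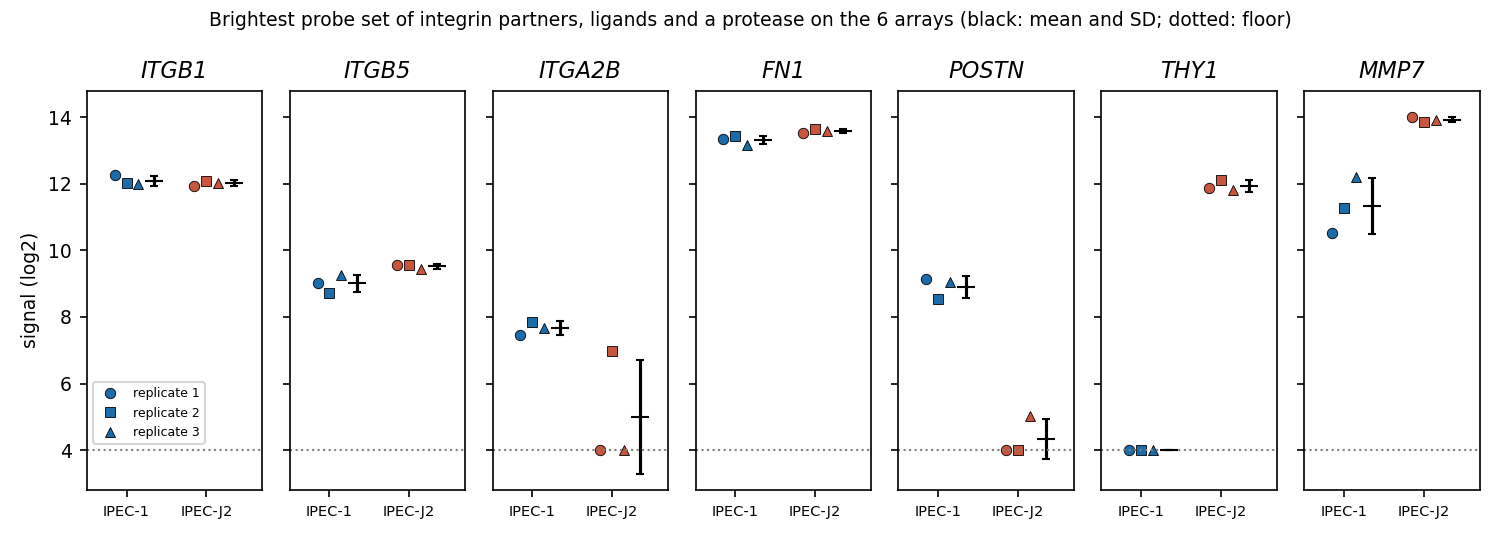
Signals (log2) of the brightest probe set of the integrin chains ITGB1, ITGB5 and ITGA2B, the ligands FN1, POSTN and THY1 and the protease MMP7 in IPEC-1 (blue) and IPEC-J2 (red), with the mean and SD in black and the floor dotted. ITGB1 overlaps between the lines, POSTN is at or near the floor in IPEC-J2, and THY1 is at the floor in IPEC-1 with a mean of 11.93 in IPEC-J2.

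Osteopontin also binds other receptors and is cut, phosphorylated and cross-linked by enzymes. Of 7 probe sets of this list above the floor, 1 passed as higher and 0 as lower from limma and from the methods' t-test, against 19.0% called on the array. It belongs to MMP7, which encodes matrilysin, a protease known to cleave osteopontin. MMP7 had signals of 10.51, 11.26 and 12.20 in IPEC-1 and of 14.00, 13.85 and 13.90 in IPEC-J2. The IPEC-1 cultures were spread and the IPEC-J2 cultures close together, with a difference of 2.59 (SE 0.43, adjusted p = 0.0146 from limma) or 6.03-fold. The adjusted p rose to 0.0528 without IPEC-1 replicate 2, to 0.0568 without IPEC-J2 replicate 3 and to 0.110 without both arrays of note B. MMP3, a further protease of osteopontin, had a single array above the floor on each of its 2 fitted probe sets. MMP2, MMP9, PHEX, ACP5 and PLG were at the floor on every array, and CD44, another osteopontin receptor, was not analysed here.

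Among genes whose products associate with alpha-v beta-3 in the membrane, 7 of 25 probe sets were higher and 2 lower in IPEC-J2, a share of 36.0% against 19.0% on the array. The 7 probe sets stand for only 5 genes, and their number was 5 without any 1 array other than IPEC-J2 replicate 1 (8 without that one). The share called on the whole array was 9.87 to 13.5% in the former fits and 17.7% in the latter. CAV1, which encodes the coat protein of caveolae, was at the floor in all 3 cultures of IPEC-1. On its brightest probe set it had 7.94, 8.12 and 8.43 in IPEC-J2, or 1.24-fold higher with IPEC-1 set to the level of 7.85. The adjusted p of 7.77e-05 from limma belongs to the difference of 4.16 from the floor, where IPEC-1 has no spread. A further probe set was called with a mean of 7.65 in IPEC-J2, and the third was not (adjusted p = 0.173).

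SDC1, a syndecan that works together with alpha-v integrins on matrix, had 7.84, 8.39 and 8.25 in IPEC-1 against 9.35, 9.80 and 9.36 in IPEC-J2 on its brighter probe set. It was 2.54-fold higher (difference 1.34, SE 0.21, adjusted p = 0.0128 from limma, 0.0516 without both arrays of note B), and the dimmer probe set had a difference of 1.55. The tetraspanin CD81 was 1.91-fold higher, with 11.15 to 11.41 in IPEC-1 and 12.15 to 12.30 in IPEC-J2 (adjusted p = 0.00683 from limma). CD63, another tetraspanin, was 1.48-fold higher with an adjusted p of 0.0263, and SDC4, which was named after its values were seen, 1.41-fold with 0.0484. The call of SDC4 ended without any 1 array (0.0817 to 0.131), and that of CD63 without any 1 array other than IPEC-J2 replicate 1 (0.0524 to 0.0885). CD47, the integrin-associated protein, had differences of 0.54, 0.51 and 0.32 on 3 probe sets and none passed.

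On the lower side, IGF1R, a growth factor receptor that works with alpha-v beta-3, had 7.80, 7.47 and 7.92 in IPEC-1 against 5.87, 5.74 and 6.41 in IPEC-J2 on 1 probe set (difference -1.72, SE 0.23, adjusted p = 0.00761 from limma). Its second probe set did not pass (-2.11, adjusted p = 0.124), and both means of the first lie below the levels of 7.85 and 7.78. PECAM1, an adhesion molecule of endothelial cells and platelets, was lower by 2.92 (adjusted p = 0.0177 from limma) at signals below these levels. Its adjusted p rose to between 0.0539 and 0.0613 without IPEC-1 replicate 1, 2 or 3 or IPEC-J2 replicate 3.

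**Figure D5:**
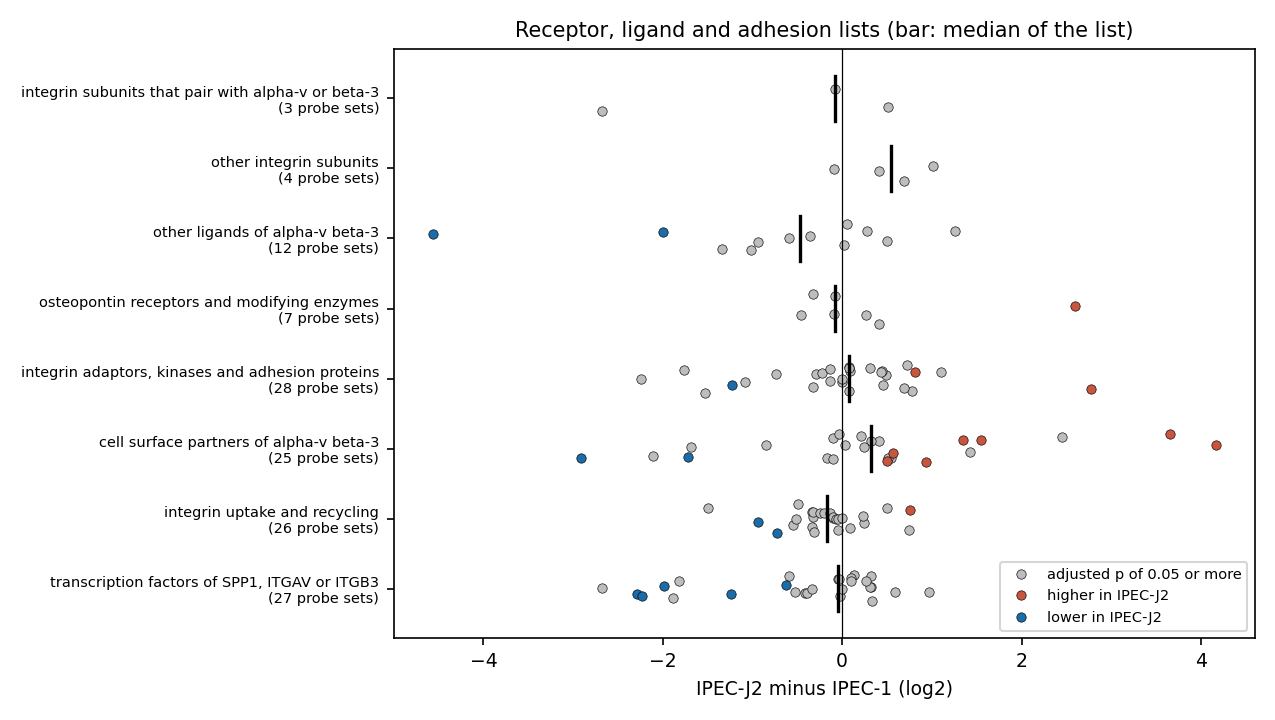
Differences between the cell lines (log2, horizontal axis) for the probe sets of 8 lists around alpha-v beta-3 and osteopontin, with 1 point per probe set, red or blue where the adjusted p from limma was under 0.05, and a bar at the median of each list. The list medians lie between -0.48 and 0.55, and the membrane partners hold 7 of the 11 higher probe sets.

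Of 28 probe sets of integrin adaptors, kinases and adhesion proteins, 2 were higher and 1 lower (10.7% against 19.0% on the array). VCL, which encodes vinculin and links talin to actin, had 12.76, 13.12 and 12.78 in IPEC-1 against 11.57, 11.76 and 11.64 in IPEC-J2. It was 2.35-fold lower (difference -1.23, SE 0.15, adjusted p = 0.00506 from limma), and its dimmer probe set had -2.24 with an adjusted p of 0.0969. PARVA, the parvin that joins integrin-linked kinase to actin, was 1.75-fold higher (adjusted p = 0.0174 from limma, 0.0710 without IPEC-J2 replicate 3, 0.0708 without both arrays of note B). LYN, a kinase of the SRC family, had 4.00, 4.00 and 6.33 in IPEC-1 against 7.36, 7.71 and 7.59 in IPEC-J2, all below the level of 7.85. Its call (adjusted p = 0.0444 from limma) ended without any 1 array other than IPEC-1 replicate 3, at 0.0909 to 0.125. TLN1, which encodes the integrin activator talin-1, had signals of 8.33, 8.46 and 8.39 in IPEC-1 against 8.28, 8.54 and 8.34 in IPEC-J2 on its brighter probe set, which overlap (difference -0.01, SE 0.12). The focal adhesion kinase PTK2, SRC, ILK and PXN were not analysed here.

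Of 26 probe sets for uptake and recycling of integrins, 1 was higher and 2 were lower (11.5% against 19.0% on the array). DAB2, a clathrin adaptor for integrins, was 1.91-fold lower on its brightest probe set, with 10.99 to 11.29 in IPEC-1 and 10.10 to 10.28 in IPEC-J2 (adjusted p = 0.00835 from limma). Its other 2 probe sets had differences of -1.50 and -0.31 and did not pass. SNX17, which returns integrins from endosomes to the surface, was 1.65-fold lower on 1 probe set (adjusted p = 0.0243 from limma, 0.0510 to 0.0857 without IPEC-1 replicate 1, 2 or 3 or IPEC-J2 replicate 3). RCC2 was the higher one, by 0.76, with an adjusted p of 0.0435 from limma that passed without IPEC-1 replicate 1 and rose to between 0.0720 and 0.114 without any other array. Its brighter probe set had a difference of -0.32 and did not pass (adjusted p = 0.215), so that no direction is given for RCC2.

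Of 27 probe sets for transcription factors known from the promoters of SPP1, ITGAV or ITGB3, 0 were higher and 5 lower from limma (2 higher and 4 lower from the methods' t-test, 3 higher and 6 lower at an unadjusted p under 0.05 from limma). The share of 18.5% compares with 19.0% on the array. TCF7L1, a repressor in Wnt signaling, had 12.92, 12.76 and 12.66 in IPEC-1 against 10.69, 10.66 and 11.03 in IPEC-J2, 3.96-fold lower (adjusted p = 0.000974 from limma). CTNNB1, which encodes beta-catenin, was lower on 2 of its 5 probe sets (differences of -2.29 and -2.24), while the others had -0.39, 0.27 and 0.32. The last of these was from its brightest probe set, so that no direction is given for this gene.

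JUN, a part of the factor AP-1, had 11.28, 11.05 and 11.48 in IPEC-1 against 9.64, 10.54 and 9.91 in IPEC-J2, 2.36-fold lower (adjusted p = 0.0318 from limma). Its adjusted p lay between 0.0618 and 0.105 without any 1 array other than IPEC-J2 replicate 2. CEBPB was 1.55-fold lower (adjusted p = 0.0181 from limma, 0.0501 to 0.0575 without IPEC-1 replicate 2 or 3 or IPEC-J2 replicate 2 or 3). FOS, the partner of JUN, had a difference of 0.96 (SE 0.60, adjusted p = 0.324 from limma), and its signals overlap between the lines. SP1, SPI1, GLI1, SP7 and DLX5 were at the floor on every array, and RUNX2, the main factor of SPP1 in bone, was not analysed here.

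Genes with a profile most like that of each member were found by the root mean square distance of signals, each centred on its own mean, over the 6 arrays, and most of this likeness is the difference between the 2 lines. For ITGB3 these were ZMAT3 (distance 0.105), HSP70.2, SLC1A1, LOX and PKD1 (0.148), with differences between 2.44 and 2.66. PKD1 was at the floor in every IPEC-1 culture and between 6.39 and 6.83 in IPEC-J2, below the levels of both lines. For ITGAV the nearest genes were DHRS11 (0.110), CAPG, MID1IP1, MARVELD1 and TMEM135 (0.144), with differences between 1.36 and 1.79. All of these ITGAV neighbours but MID1IP1 had IPEC-1 means below the level of 7.85. SPP1 had no close match. Its nearest genes were MFAP5 (0.689), NDN, SLC46A1, CLCA1 and NREP (0.847), and 4 of these 5 were at the floor in every IPEC-J2 culture.

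Osteopontin and beta-3 are also known from macrophages, platelets, endothelium and bone cells, and markers of such cells were therefore read on the same arrays, beside those of epithelium. Of 19 probe sets of epithelial markers, 18 were above the floor on some array, of which 3 were higher and 2 lower in IPEC-J2 (27.8% called against 19.0% on the array). EPCAM was between 13.34 and 13.60 on all 6 arrays and KRT18 between 12.24 and 12.74, and neither passed. VIL1, which encodes the brush border protein villin, had 8.45, 4.00 and 8.53 in IPEC-1 against 13.83, 14.04 and 13.81 in IPEC-J2. It was higher at an adjusted p of 0.0206 from limma, which rose to between 0.0558 and 0.0711 without IPEC-J2 replicate 1, 2 or 3.

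Of the tight junction genes, CLDN3 was at the floor in all 3 cultures of IPEC-1 and between 8.01 and 8.47 in IPEC-J2 (adjusted p = 7.13e-05 from limma). CLDN7 was 2.13-fold higher (adjusted p = 0.0228 from limma, 0.0555 to 0.0756 without IPEC-1 replicate 1 or 3 or IPEC-J2 replicate 1 or 2). OCLN, on its brightest probe set, was 1.82-fold lower (adjusted p = 0.00730 from limma), and KRT19, a keratin, was 1.74-fold lower (adjusted p = 0.00782 from limma). The epithelial markers thus differed between the lines in both directions. The summed linear signal above the floor of this list ran from 61254 to 63576 in IPEC-1 and from 68106 to 75060 in IPEC-J2.

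Of 9 probe sets of macrophages and other leukocytes, 5 were at the floor on every array, among them those of PTPRC, TYROBP and MRC1. Of the other 4, limma called 0 higher and 1 lower (25.0% against 19.0% on the array). The lower one was CD3E, a chain of the T cell receptor complex, with 5.60, 6.13 and 6.05 in IPEC-1 and the floor in all IPEC-J2 cultures (difference -1.93, adjusted p = 0.00171 from limma), below the levels of both lines. AIF1 had 9.92 to 10.58 in IPEC-1 and 10.48 to 10.68 in IPEC-J2, and CD14 and CD163 were above the floor on IPEC-J2 replicate 3 alone. The summed signal of that list ran from 1007 to 1554 in IPEC-1 and from 1412 to 1684 in IPEC-J2. It came mostly from AIF1, the only gene of the list with signals above the levels of both lines.

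Of 15 probe sets of endothelial cells and platelets, 12 were at the floor on every array, among them those of VWF, CDH5, KDR and PPBP. Of the other 3, PECAM1 was called lower, ITGA2B was not called, and GP9 was above the floor on IPEC-J2 replicate 2 alone (7.00). The share called was 33.3%, by 1 probe set, against 19.0% on the array. The summed signal of the list ran from 344 to 361 in IPEC-1 and from 0 to 258 in IPEC-J2. Of 9 probe sets of bone cells, 7 were at the floor on every array, with BGLAP, IBSP, SP7, DMP1 and ACP5 among them. Of the other 2, 0 were called by limma (against 19.0% on the array) or by the methods' t-test. An unadjusted p under 0.05 from limma was seen for 1 of them. CTSK had a difference of -0.83 (SE 0.25, adjusted p = 0.0771 from limma), and ALPL was above the floor on IPEC-1 replicate 2 alone (4.99). The summed signal ran from 236 to 315 in IPEC-1 and from 96.2 to 169 in IPEC-J2.

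Of 17 probe sets of fibroblasts and smooth muscle, 10 were at the floor on every array, among them those of DCN, COL3A1, LUM, DES, FAP and ACTA2. Of the other 7, the 3 of THY1 were called higher and 0 were called lower (42.9%, all of 1 gene, against 19.0% on the array). VIM had 13.06, 12.17 and 13.35 in IPEC-1 against 10.95, 11.63 and 11.85 in IPEC-J2 (adjusted p = 0.0669 from limma). TAGLN and PDGFRB had differences of -3.22 and -1.68 and did not pass (adjusted p = 0.0973 and 0.134 from limma). COL1A2 had a difference of -0.07 (SE 0.12, adjusted p = 0.701 from limma), and its signals overlap between the lines. The summed signal ran from 5839 to 10986 in IPEC-1 and from 6704 to 8787 in IPEC-J2, ranges that overlap. Without THY1 it ran from 5839 to 10986 in IPEC-1 and from 2386 to 3936 in IPEC-J2, ranges that do not overlap. The part of the cells named by these lists in the signals of ITGAV, ITGB3 and SPP1 was not tested.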

How the data were processed

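RNA of 3 IPEC-1 and 3 IPEC-J2 cultures was measured on Affymetrix arrays, and groups and replicate numbers were taken from the sample titles. The deposited table holds 24123 probe sets with 1 log2 signal per array, which the authors made by GCOS 1.1.1 and PLIER, as the submitters' processing notes list them. Per the methods, which name another version of GCOS, arrays were scaled globally to a common target signal, corrected for background, normalized and summarised. Which of these scalings the deposited values carry, and their log base, are not given in the sources used here, and log2 was taken from the floor of exactly 4.00, the log2 of 16. Scaling an array by a single factor shifts all its log2 signals alike, which other kinds of normalization need not do. Values at the floor cannot be ordered. Detection calls were not used. Precision is limited by the number of arrays.

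Control probe sets (124) and 7677 probe sets at the floor on every array were left out, the latter because a probe set without spread distorts the variance prior. The other 16322 were fitted one by one by lmFit and eBayes of limma 3.58.1 (R 4.3.3), two-sided, with Benjamini-Hochberg adjustment over all of them and a threshold of 0.05. With 3 against 3, exact permutation cannot reach a p below 0.1. The platform annotation gave 1 symbol to 10069 probe sets, several to 198 and none here to 13732. RefSeq's gene table held the identifier of 9961 of the first kind, under the same symbol. No sequence was used.

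The members, the 8 lists and the 5 marker lists were chosen with earlier results of these data known, and the lists were written from general knowledge. From each list up to 6 called probe sets per direction with the largest differences were to be named, and the 2 largest where none was called, with ITGB1, ITGB5, ITGB6, ITGB8, ITGA2B, CD44, VTN, FN1 and the 5 nearest profiles of each member. Other genes are named with their values seen.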

Additional observations from a re-analysis of the deposited data

How the results depend on the processing

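In 20 other settings, 2 of them chosen after seeing the data (arrays paired by culture note with the remaining 2 arrays as one more pair, and the arrays of culture note B left out), 8 left the differences of ITGAV, ITGB3 and SPP1 identical by construction. In the other 12 the direction stayed, and each difference moved by less than the root mean square of the SDs of both lines (0.26 for ITGAV, 0.21 for ITGB3 and 0.64 for SPP1), except for SPP1 with an offset of 16 on the linear scale (-5.95), which by its construction shrinks differences of low signals. Leaving out 1 array gave 1.42 to 1.74 for ITGAV, 2.44 to 2.68 for ITGB3 and -6.86 to -6.24 for SPP1.

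Of all probe sets, 1435 were higher and 1660 lower. One value per gene, with fewer features, gave 662 and 762 by the mean and 806 and 942 by the brightest probe set. Leaving out 1 array gave 722 to 1569 higher and 870 to 1300 lower. The pairs by note, with the remaining pair, as a block gave 864 and 776, and without the arrays of culture note B 951 were lower. After centring each array on its 75th percentile, the share of calls that were higher was 51.1% in place of 46.4%, 54.7% without IPEC-J2 replicate 1 and 56.6% without the arrays of culture note B. The last moved the split by over 10 percentage points. In the lists around the receptor, 11 were higher and 12 lower. eBayes with trend and robust options gave 19 higher and 18 lower, while the share called on the whole array rose to 25.4% from 19.0%. Leaving out 1 array gave 5 to 10 higher and 8 to 14 lower, with 9.87 to 17.7% called on the whole array. Leaving out culture note B gave 5 higher and 10 lower, with 13.7% called on the whole array. With the trend and robust options ITGB5 (adjusted p = 0.0435 from limma), ITGA2B (0.0456) and FN1 (0.0349) passed. JUN, LYN and RCC2 did not pass the methods' t-test once it was adjusted, a step that the methods do not state. By that t-test 2 epithelial marker probe sets were higher and 2 lower, against 3 and 2 by limma.

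With only the 4 arrays of culture notes A and B and the note as a block, 0 probe sets were called higher and 0 lower, in the lists too, where 3322 and 26 had an unadjusted p under 0.05 from limma. That fit has the fewest samples. Replicate numbers of the titles showed no sign of pairing. Same-numbered arrays of the 2 lines deviated from their means with correlations of -0.04, -0.12 and 0.02, and no array fitted its own number best. With 3 arrays per line, such correlations cannot exclude a pairing by number. With the replicate block 465 probe sets were higher and 493 lower, and 3 and 7 in the lists. Arrays within culture notes A and B had 0.05 and 0.17, and the remaining pair 0.13. Of 26 called probe sets named from the lists around the receptor or belonging to THY1, 12 kept their call in all settings that gave a value except the fit on notes A and B only, and 0 reversed. This count leaves out the called marker probe sets of VIL1, CLDN3, CLDN7, OCLN, KRT19 and CD3E.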
